A study of Mus musculus with 6 samples.

Results

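The imprinted Dlk1-Dio3 cluster lies on mouse chromosome 12 and is described here through 6 genes, Dlk1, Meg3, Rtl1, Rian, Mirg and Dio3, of the 55286 gene symbols in the deposited count table. These genes were chosen on their levels in these same libraries, because transcripts of the cluster were highest in reprogrammed cells and lowest in muscle. Their levels and fold changes are therefore given as a description with no test, and they support nothing by themselves. All 6 genes were among the 17400 that passed the filter on low counts, and that filter could be passed through the group in which a gene was high.

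RNA was sequenced from 3 groups of 2 libraries each: cells labelled as made by direct reprogramming, muscle, and mouse embryonic fibroblasts (MEF), a primary culture of connective tissue cells. The study's title concerns trans-differentiation and whether developmental DNA methylation is reset during it. Library names begin with STauMEF for MEF, SEndomuscle for muscle and SiMuscle for reprogrammed cells. The letters Tau, Endo and i are not explained in them. The labels give no strain, genotype, age, reprogramming factor or time for any group, and do not say whether the muscle is tissue or cultured cells or whether replicates were separate cultures or animals. The p-values below therefore measure only the spread between these libraries, which may be technical.

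An imprinted gene is transcribed mainly from 1 parental copy, and the choice is set by DNA methylation laid down in the germ line. In this cluster the protein-coding genes Dlk1, Rtl1 and Dio3 are transcribed mainly from the paternal chromosome, and the long noncoding RNAs Meg3, Rian and Mirg from the maternal one. A differentially methylated region between Dlk1 and Meg3 controls the whole domain in the mouse embryo. Meg3, Rian and Mirg are read from the same strand and carry, or lie beside, a large group of microRNA hairpins and box C/D small nucleolar RNAs (snoRNAs), while Rtl1 is read from the opposite strand. The homologous region in sheep is known for the callipyge muscle phenotype, in which Dlk1 and Rtl1 are overexpressed in muscle.

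In reprogrammed cells 5 of the 6 genes stood above both other groups, and in muscle all 6 stood below both other groups. Dlk1, Meg3, Rtl1, Rian and Mirg had both reprogrammed libraries above both MEF libraries and both MEF libraries above both muscle libraries. That order was found in 558 of all 17400 genes tested (3.21%). Dio3 went against the pattern by which the cluster was selected: both MEF libraries were above both reprogrammed libraries, which were above both muscle libraries, an order held by 1536 of the genes tested (8.83%). Since the genes were selected on this order, nothing is read from the difference between these shares. In bulk RNA a smaller number of cells that transcribe a gene and less of its RNA per cell cannot be told apart.

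Markers of another cell type moved with the cluster. Of 10 macrophage markers, 10 were called higher in reprogrammed cells than in MEF, 9 were called lower in muscle than in MEF, and 10 were called higher in reprogrammed cells than in muscle (edgeR's quasi-likelihood test, adjusted p under 0.05). Their summed level was 502 and 503 CPM (counts scaled to a common library total) in the reprogrammed libraries, 5.33 and 3.77 CPM in muscle, and 54.0 and 41.6 CPM in MEF, with Adgre1, Ptprc and Tyrobp at 0 in both muscle libraries. The 10 fibroblast markers summed to 11922 and 15174 CPM in reprogrammed cells, 12514 and 6770 CPM in muscle and 26603 and 16914 CPM in MEF, with none at 0. Of these 10, 6 were called higher in reprogrammed cells than in muscle (1 without muscle replicate 2), 6 were called lower in muscle than in MEF, and 1 was called higher and 4 lower in reprogrammed cells than in MEF. The 10 skeletal muscle markers, set against the labels, summed to 36319 and 52927 CPM in reprogrammed cells, 52535 and 48970 CPM in muscle and 566 and 375 CPM in MEF. The muscle stem cell markers, a list of 8 genes, summed to 502 and 811 CPM in reprogrammed cells, 1413 and 1285 CPM in muscle and 370 and 358 CPM in MEF, where Pax7, Calcr and Chrdl2 were at 0. In reprogrammed cells and muscle most of these sums was Itga7 and Sdc4, which other cells also express. In MEF the largest parts were Sdc4, at 219 and 157 CPM, and Vcam1, at 130 and 188 CPM. The defining genes Pax7 and Myf5 had 0.0562 and 0.0484 CPM and 0.281 and 0.145 CPM in reprogrammed cells, against 16.6 and 14.5 CPM and 31.0 and 38.6 CPM in muscle. Their log2 fold changes of reprogrammed cells over muscle were -8.06 ± 0.59 and -7.33 ± 0.46 (edgeR adjusted p = 2.51e-04 and 1.01e-04). Of the 6 stem cell markers tested, these were the 2 called lower in reprogrammed cells than in muscle. Vcam1 went the other way, at 1.10 ± 0.28 (edgeR adjusted p = 0.0422), the 1 called higher. Pax3, Calcr and Chrdl2 were at or near 0 CPM in muscle as well.

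Summed adipocyte, endothelial and neuronal markers were also lowest in muscle. The 7 adipocyte genes summed to 38.7 and 18.4 CPM in reprogrammed cells, 0.0426 and 0.0609 in muscle, and 7.88 and 16.0 in MEF. That is the order of the cluster, but nearly all of the sum in reprogrammed cells and MEF was Fabp4, the 1 gene tested. Fabp4 had 38.6 and 18.4 CPM in reprogrammed cells, 0 in muscle, and 7.49 and 15.6 in MEF. It was not called between reprogrammed cells and MEF (edgeR adjusted p = 0.087). Adipoq, Plin1, Lep and Retn were at 0 in reprogrammed cells, and 6 of the 7 were at 0 in muscle. The 8 endothelial genes summed to 15.6 and 23.7 CPM in reprogrammed cells, 6.31 and 3.53 CPM in muscle, and 54.4 and 49.7 CPM in MEF, with Tie1 at 0 in reprogrammed cells and muscle and Emcn at 0 in muscle. Of 7 tested, 5 were called lower in muscle than in MEF and 3 higher in reprogrammed cells than in muscle. The 10 neuronal genes summed to 31.2 and 50.1 CPM in reprogrammed cells, 11.1 and 13.6 CPM in muscle, and 60.2 and 44.2 CPM in MEF, with 3 tested, of which 2 were called lower in muscle than in MEF. The 7 Schwann cell genes summed to 92.0 and 109 CPM in reprogrammed cells, 228 and 229 CPM in muscle, and 26.9 and 21.4 CPM in MEF, but of 6 tested, 5 were called lower in muscle than in MEF and 1 higher. The part of any of these cell types in the levels of the cluster was not tested.

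**Figure D1:**
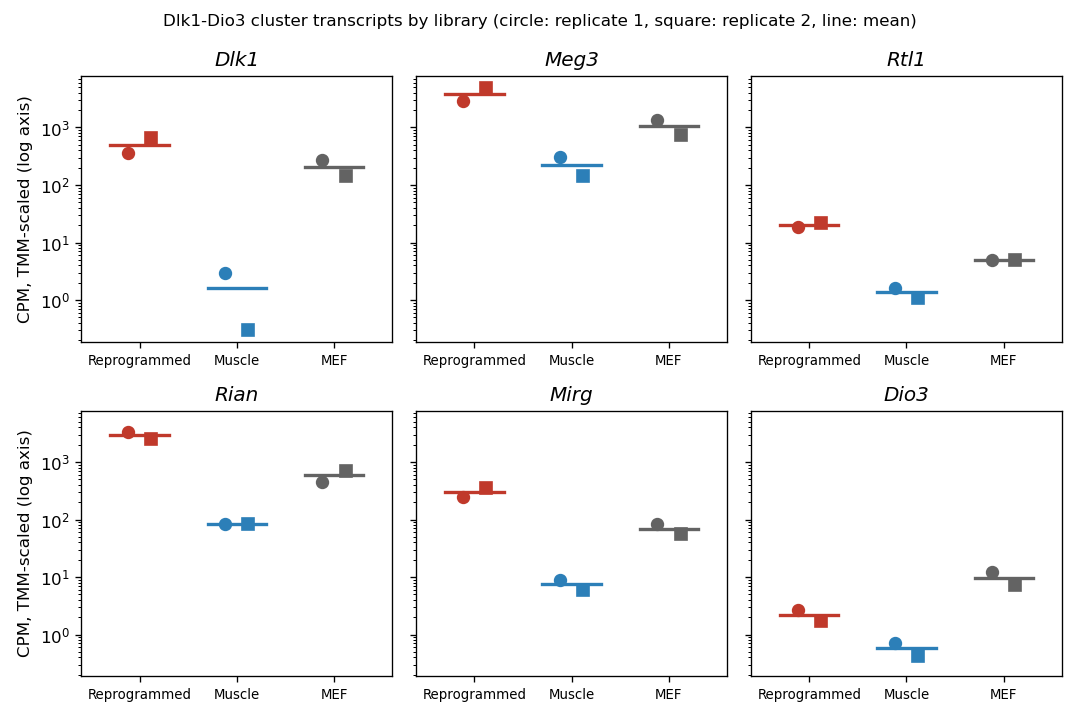
Level of each of the 6 cluster genes in every library, in CPM on a log axis, with reprogrammed cells on the left, muscle in the middle and MEF on the right; points are libraries and horizontal bars are group means of 2 libraries. Dlk1, Meg3, Rtl1, Rian and Mirg are highest in reprogrammed cells, while Dio3 is highest in MEF, at 12.3 and 7.33 CPM.

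The start regions of 4 of the genes are shown because they mark the 2 ends of the cluster and its noncoding part: Dlk1 and Meg3 on either side of the imprinting control region, Rian as a noncoding gene downstream, and Dio3 as the gene with the other order. Each is the 300 bases around the start annotated in RefSeq, most of them before it, on the plus strand of mm10 (GRCm38.p6). For Dio3 this RefSeq start lies 162 bases inside the gene as placed by the coordinates given below, which are from GENCODE. Capitals mark matches, on either strand, to CANNTG (the E-box, bound by MyoD and related factors), TGCCGC (the hexamer bound by ZFP57 when methylated) and TATAAA (the TATA box). The Dlk1 window is chr12:109452573-109452872, that of Meg3 chr12:109540746-109541045, that of Rian chr12:109603695-109603994 and that of Dio3 chr12:110278980-110279279.
Dlk1: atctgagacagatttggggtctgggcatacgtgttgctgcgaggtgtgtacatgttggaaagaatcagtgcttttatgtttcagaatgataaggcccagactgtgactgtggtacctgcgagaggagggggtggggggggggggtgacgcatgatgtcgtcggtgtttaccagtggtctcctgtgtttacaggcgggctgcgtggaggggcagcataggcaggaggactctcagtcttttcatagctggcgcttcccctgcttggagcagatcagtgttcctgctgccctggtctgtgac
Meg3: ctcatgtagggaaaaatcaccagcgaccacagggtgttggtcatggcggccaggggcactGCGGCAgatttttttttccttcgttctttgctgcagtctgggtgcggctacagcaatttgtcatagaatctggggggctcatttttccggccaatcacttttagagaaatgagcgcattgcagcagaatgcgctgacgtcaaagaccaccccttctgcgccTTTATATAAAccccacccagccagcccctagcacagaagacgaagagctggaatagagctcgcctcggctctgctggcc
Rian: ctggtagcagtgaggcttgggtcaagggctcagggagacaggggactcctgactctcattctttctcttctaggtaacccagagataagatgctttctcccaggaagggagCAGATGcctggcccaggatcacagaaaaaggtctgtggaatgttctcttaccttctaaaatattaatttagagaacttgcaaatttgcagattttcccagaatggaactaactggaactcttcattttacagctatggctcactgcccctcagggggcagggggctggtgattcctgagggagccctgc
Dio3: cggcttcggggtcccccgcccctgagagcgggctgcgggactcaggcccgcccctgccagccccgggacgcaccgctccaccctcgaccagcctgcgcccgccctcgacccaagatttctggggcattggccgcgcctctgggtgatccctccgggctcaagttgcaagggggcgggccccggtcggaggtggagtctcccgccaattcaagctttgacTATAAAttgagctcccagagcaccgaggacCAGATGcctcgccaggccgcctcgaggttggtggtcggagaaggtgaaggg

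The 4 windows differed in their letters. The Dlk1 window held none of the 3 motifs and 9 CpG dinucleotides. The Meg3 window held TGCCGC 190 bases before the start and TATAAA at 29 and 25 bases before it, as overlapping matches on opposite strands, with 13 CpG. The Rian window held CANNTG 139 bases before the start and 0 CpG. The Dio3 window held TATAAA 31 bases before the RefSeq start, CANNTG 1 base before it, and 25 CpG, with 69.0% G and C. CANNTG was present in 72.3% of all 32851 windows of this length, TGCCGC in 11.6% and TATAAA in 13.6%. At least 9 CpG were found in 45.8% of windows, and at least 25 in 18.4%. The narrower E-box CAGCTG, present in 16.3% of windows, was in none of these 4, nor in those of Mirg and of a second annotated start of Meg3. Rtl1 had no entry in the table of start regions. A match is a description of letters and shows no binding.

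Dlk1 encodes a transmembrane protein of the Notch ligand family that lacks the usual receptor-binding domain and is known for restraining fat cell differentiation. It spans chr12:109452823-109463336 on the plus strand. Its level was 356 and 652 CPM in reprogrammed cells, 2.90 and 0.304 CPM in muscle, and 268 and 143 CPM in MEF. The 3 groups did not overlap, but the distance between the lower reprogrammed library and the higher MEF library was small beside the spread within each group. The log2 fold change of reprogrammed cells over MEF was 1.29 ± 0.63 (SE, n = 2 per group). Muscle over MEF gave -6.93 ± 0.83, and reprogrammed cells over muscle gave 8.22 ± 0.87, the widest separation of the 6 genes. In muscle the values rest on 68 and 5 counts, and replicate 1 was 9.53-fold above replicate 2. Without muscle replicate 1 the log2 fold change of muscle over MEF was -9.37 and that of reprogrammed cells over muscle 10.66, while without muscle replicate 2 they were -6.14 and 7.43. Between the replicates of every other group and gene of the cluster, the higher library was between 1.03 and 2.13 times the lower.

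Rtl1 encodes a retrotransposon-derived protein needed in the mouse placenta and fetal muscle. It lies at chr12:109589193-109600330 on the minus strand. Its level was 18.7 and 22.0 CPM in reprogrammed cells, 1.62 and 1.10 CPM in muscle, and 4.90 and 5.05 CPM in MEF. The libraries of each group lay close together, and the groups did not overlap. The log2 fold changes were 2.03 ± 0.34 for reprogrammed cells over MEF, -1.85 ± 0.36 for muscle over MEF and 3.89 ± 0.37 for reprogrammed cells over muscle (SE, n = 2 per group). Maternal transcripts antisense to Rtl1 carry microRNA hairpins, and 7 hairpin rows overlap its exons, all at 0 counts in every library. The library kit keeps strand, but no source used here gives the strand setting of the counting, so reads of Rtl1 and of its antisense transcripts cannot be told apart.

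Dio3 encodes the type 3 deiodinase, the enzyme that inactivates thyroid hormone. It lies at chr12:110279068-110281097 on the plus strand, 529.6 kb beyond Mirg. Its level was 2.70 and 1.74 CPM in reprogrammed cells (48 and 36 counts), 0.725 and 0.426 CPM in muscle (17 and 7 counts), and 12.3 and 7.33 CPM in MEF (223 and 151 counts). MEF stood highest and muscle lowest, with no overlap. The log2 fold change of reprogrammed cells over MEF was -2.14 ± 0.46, opposite in sign to that of the other 5 genes. Muscle over MEF gave -4.04 ± 0.52, and reprogrammed cells over muscle gave 1.90 ± 0.52 (SE, n = 2 per group). Its divergent noncoding neighbour Dio3os had 0.450 and 0.0968 CPM in reprogrammed cells, 0.213 and 0.0609 CPM in muscle, and 1.10 and 0.971 CPM in MEF. Dio3os was therefore also highest in MEF, while its reprogrammed and muscle libraries overlapped.

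Meg3 is the first of the maternal noncoding RNAs and is known for growth restraint. It spans chr12:109541001-109571726. Its level was 2909.7 and 4844 CPM in reprogrammed cells, 304 and 143 CPM in muscle, and 1377 and 748 CPM in MEF. The groups did not overlap, and within each the 2 libraries differed by 1.66-fold to 2.13-fold. The log2 fold changes were 1.87 ± 0.45 for reprogrammed cells over MEF, -2.25 ± 0.45 for muscle over MEF and 4.12 ± 0.49 for reprogrammed cells over muscle (SE, n = 2 per group). Without muscle replicate 1 the muscle values were -2.90 over MEF and, with reprogrammed cells on top, 4.76.

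Rian, a host of box C/D snoRNAs, spans chr12:109603940-109661716, and some snoRNA rows of the cluster lie beyond its end. Its level was 3318 and 2521 CPM in reprogrammed cells, 84.9 and 82.8 CPM in muscle, and 456 and 709 CPM in MEF. The 2 muscle libraries were nearly equal, and no groups overlapped. Rian had the largest fold of the 6 genes for reprogrammed cells over MEF, 5.01 in the ratio of mean CPM and 2.33 ± 0.29 on the log2 scale. Muscle over MEF gave -2.80 ± 0.30 and reprogrammed cells over muscle 5.12 ± 0.33 (SE, n = 2 per group).

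Mirg, whose region holds many of the cluster's microRNA hairpins, spans chr12:109729764-109749460. Its level was 243 and 348 CPM in reprogrammed cells, 8.96 and 6.03 CPM in muscle, and 83.3 and 55.2 CPM in MEF. The groups were again separate, with muscle far below the other groups. The log2 fold changes were 2.09 ± 0.33 for reprogrammed cells over MEF, -3.20 ± 0.35 for muscle over MEF and 5.29 ± 0.39 for reprogrammed cells over muscle (SE, n = 2 per group).

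Levels of different genes are compared here per kilobase of exon, with all annotated exons of a gene merged. The shares and ratios of counts given below are not scaled for length. On the scale per kilobase, Meg3 had the highest mean in every group. Its mean was 214 ± 75.6 CPM per kb in reprogrammed cells, 12.3 ± 6.29 in muscle and 58.7 ± 24.6 in MEF (SD, n = 2 each). In reprogrammed cells Rian followed at 160 ± 30.9 CPM per kb, then Dlk1 at 89.0 ± 37.0, Mirg at 40.5 ± 10.2, Rtl1 at 3.20 ± 0.37 and Dio3 at 1.09 ± 0.33. Meg3 and Rian did not differ beyond their spread there, as Rian was above Meg3 in replicate 1 and below it in replicate 2. In muscle the order was Meg3, Rian at 4.60 ± 0.08, and Mirg at 1.03 ± 0.28, followed by Dio3 at 0.283 ± 0.10, Dlk1 at 0.283 ± 0.32 and Rtl1 at 0.214 ± 0.06, whose ranges overlapped. In MEF the order was Meg3, Dlk1 at 36.4 ± 15.7, Rian at 32.0 ± 9.81, Mirg at 9.50 ± 2.73, Dio3 at 4.83 ± 1.72 and Rtl1 at 0.783 ± 0.02. In MEF Dlk1 overlapped with Meg3 and with Rian, while both Meg3 libraries lay above both Rian libraries.

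Together the 6 genes took 0.724% and 0.822% of all counts in the reprogrammed libraries, 0.0384% and 0.0226% in muscle, and 0.210% and 0.181% in MEF. The noncoding genes Meg3, Rian and Mirg made up 94.5% and 91.9% of the counts of the 6 genes in reprogrammed cells, 98.7% and 99.2% in muscle, and 87.0% and 90.7% in MEF.

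Ratios of counts within a library do not depend on library scaling. Dlk1 had 12.2 and 13.5 counts per 100 counts of Meg3 in reprogrammed cells, 0.955 and 0.213 in muscle, and 19.5 and 19.1 in MEF. The 3 groups did not overlap on this ratio, so the paternal gene Dlk1 was lower relative to Meg3 in reprogrammed cells than in MEF, although both were at higher levels there. Mirg had 0.0834 and 0.0718 counts per count of Meg3 in reprogrammed cells, 0.0295 and 0.0422 in muscle, and 0.0605 and 0.0738 in MEF. Reprogrammed cells and MEF overlapped on this ratio and muscle lay below both. The ratio of Rian to Meg3 was 1.14 and 0.521 in reprogrammed cells, 0.280 and 0.581 in muscle, and 0.331 and 0.948 in MEF, so that it differed more between replicates than between groups. Dlk1 had 132 and 374 counts per count of Dio3 in reprogrammed cells, 4 and 0.714 in muscle, and 21.9 and 19.5 in MEF, with no overlap between groups. With 2 libraries against 2, an exact permutation test could not give a two-sided p below 0.333, and none is given.

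**Figure D2:**
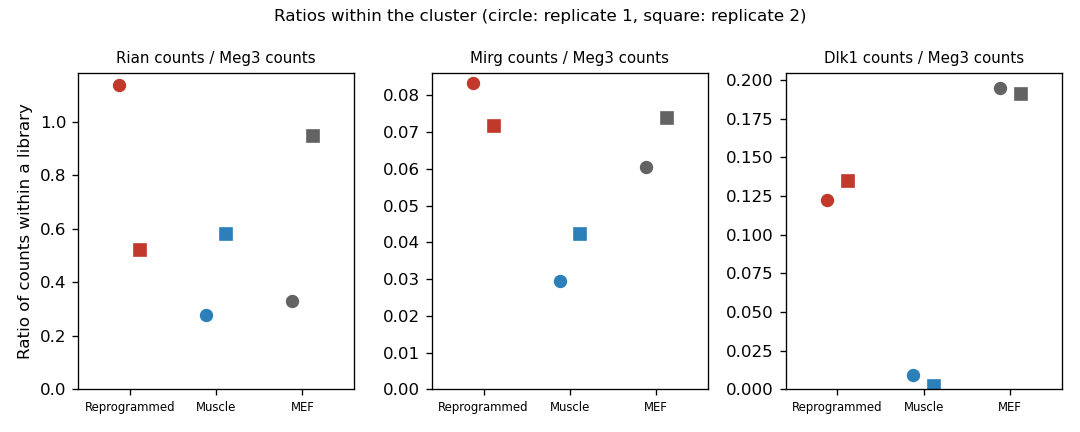
Counts of Rian, Mirg and Dlk1 per count of Meg3 in every library, on axes that start at 0, with reprogrammed cells on the left, muscle in the middle and MEF on the right. Dlk1 per Meg3 separates the 3 groups, while Rian per Meg3 runs from 0.280 to 1.14 with all groups overlapping.

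Across the 6 libraries, log2 CPM of Dlk1, Meg3, Rtl1, Rian and Mirg correlated with each other at Pearson's r of 0.905 to 0.989. Dio3 correlated with the other 5 at 0.43 to 0.751. These coefficients describe 6 libraries in 3 groups, which share depth and scaling, and carry no p.

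The cluster spans 828.3 kb, from chr12:109452823 to the end of Dio3, and the count table holds 116 rows within it. Of these, 61 were at 0 in every library and 24 had at least 10 counts in all, including the 6 genes. The table has 67 microRNA hairpin rows and 23 snoRNA rows there, of which 32 and 18 were at 0. Hairpin rows summed to 131 and 222 counts in reprogrammed cells, 12 and 3 in muscle, and 58 and 45 in MEF. Groups did not overlap, but an mRNA library does not measure mature microRNAs or most snoRNAs. These may be reads from longer transcripts that cross the hairpins, which was not tested.

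Of the 18 other rows with at least 10 counts, 15 had both reprogrammed libraries above both muscle libraries, 13 had them above both MEF libraries, and 7 had the full order of reprogrammed cells, MEF and muscle. Among all 21681 rows of the table with at least 10 counts, these conditions held for 25.8%, 31.7% and 2.96%. The rows lie in a region chosen for this pattern, so nothing is read from the difference. B830012L14Rik, a long noncoding RNA gene of the cluster, had 10.3 and 8.42 CPM in reprogrammed cells, 0.341 and 0.365 in muscle, and 2.64 and 3.84 in MEF. Gm37899, an unclassified transcript, had 6.91 and 2.61 CPM in reprogrammed cells, 0.256 and 0.913 in muscle, and 1.43 and 1.12 in MEF. Both had the order of Meg3. The processed pseudogene Gm3379 did not: it had 4.55 and 2.86 CPM in reprogrammed cells, 4.86 and 4.50 in muscle, and 5.07 and 4.18 in MEF, with all groups overlapping. Gm34719 and Dio3os were the 2 rows with MEF highest. The snoRNA row Gm24564, inside Rian, had 0.787 and 0.726 CPM in reprogrammed cells, 0.171 and 0.0609 in muscle, and 0.165 and 0.146 in MEF.

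The most counted hairpin row was Mir453, inside Mirg, with 127 counts over the 6 libraries. It had 2.14 and 2.42 CPM in reprogrammed cells, 0.0426 and 0 in muscle, and 1.21 and 0.777 in MEF. Mir541 had 1.29 and 0.581 CPM in reprogrammed cells, 0.0853 and 0 in muscle, and 0.110 and 0.0971 in MEF. Mir3072, which overlaps an exon of Mirg, had 0.618 and 0.823 CPM in reprogrammed cells, 0.128 and 0.0609 in muscle, and 0.606 and 0.194 in MEF. All 3 had both reprogrammed libraries above both muscle libraries.

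Mature sequences (RefSeq, GRCm38.p6) are shown for these 3 hairpins and for pairs that share a seed, the bases 2 to 8 that select targets. Capitals mark the seed. All lie on the plus strand.
mmu-miR-453: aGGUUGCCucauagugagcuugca
mmu-miR-496a-5p: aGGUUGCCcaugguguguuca
mmu-miR-541-5p: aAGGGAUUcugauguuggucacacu
mmu-miR-541-3p: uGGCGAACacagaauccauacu
mmu-miR-3072-5p: aGGGACCCcgagggagggcagg
mmu-miR-3072-3p: uGCCCCCUccaggaagccuucu
mmu-miR-379-3p: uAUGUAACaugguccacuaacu
mmu-miR-411-3p: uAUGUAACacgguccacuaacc
mmu-miR-376b-5p: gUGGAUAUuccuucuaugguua
mmu-miR-376c-5p: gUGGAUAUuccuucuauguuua

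The seed of mmu-miR-453 is also that of mmu-miR-496a-5p, and the mmu-miR-379-3p and mmu-miR-411-3p pair and the mmu-miR-376b-5p and mmu-miR-376c-5p pair each share one. The sequence table held 114 mature microRNAs from 58 hairpins of the cluster, all 58 with a row in the count table. They carried 104 different seeds, of which 10 were shared by 2 mature microRNAs each. 106 of the mature sequences are on the plus strand, that of Meg3, and 8 on the minus strand.

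The neighbours of the cluster were compared across the 3 groups with edgeR's quasi-likelihood test, adjusted over all 17400 genes by the Benjamini-Hochberg method. In reprogrammed cells against MEF, 15.9% of all genes tested were called higher and 11.3% lower. In muscle against MEF these shares were 17.3% and 18.3%. In reprogrammed cells against muscle they were 7.58% and 2.46%. The first 2 comparisons share the MEF libraries. The median log2 fold change over all genes tested was 0.07, 0.00 and 0.03 in these 3 comparisons.

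Of the 20 nearest tested protein-coding genes, 10 on each side, 2 were called higher and 1 lower in reprogrammed cells than in MEF, with a median log2 fold change of -0.03. For muscle over MEF these were 1 and 4 genes, with a median of -0.02, and for reprogrammed cells over muscle 2 were called, both higher, with a median of -0.02. Begain, the nearest of these on the Dlk1 side at 384.6 kb, had 7.14 and 10.99 CPM in reprogrammed cells, 1.71 and 0.730 in muscle, and 12.8 and 5.29 in MEF. It was lower in muscle than in MEF, at -2.85 ± 0.58 (SE; edgeR adjusted p = 0.00499; -3.62 without muscle replicate 1 and -2.08 without MEF replicate 1), and higher in reprogrammed cells than in muscle, at 2.86 ± 0.58 (edgeR adjusted p = 0.0155, and 0.116 without muscle replicate 2; 3.62 without muscle replicate 1). Between reprogrammed cells and MEF its log2 fold change was 0.00 ± 0.52 (edgeR adjusted p = 0.997).

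Evl and Eml1, farther out on the same side, were also lower in muscle than in MEF, at -1.75 ± 0.33 (edgeR adjusted p = 0.00342) and -2.11 ± 0.31 (edgeR adjusted p = 8.43e-04). Hhipl1 was lower in both: -2.95 ± 0.38 in reprogrammed cells and -1.97 ± 0.36 in muscle, each over MEF (edgeR adjusted p = 5.64e-04 and 0.00273). Eml1 was higher in reprogrammed cells than in muscle, at 1.37 ± 0.30 (edgeR adjusted p = 0.022, but 0.0516 to 0.223 when any 1 library of those 2 groups was left out). Wdr25 and Slc25a29 were higher in reprogrammed cells than in MEF, at 1.69 ± 0.47 and 1.89 ± 0.54 (edgeR adjusted p = 0.0272 and 0.0307). Both calls were lost without reprogrammed replicate 2 (0.126 and 0.186, with Slc25a29 at 1.15) and without MEF replicate 2 (0.115 and 0.089).

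On the Dio3 side the nearest gene, Ppp2r5c, lies 166.0 kb away, and 1 of the 10 genes was called in any comparison. Ankrd9 was higher in muscle than in MEF, at 2.0 ± 0.55 (edgeR adjusted p = 0.0198, and 0.0985 without muscle replicate 1; 2.72 without MEF replicate 1).

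**Figure D3:**
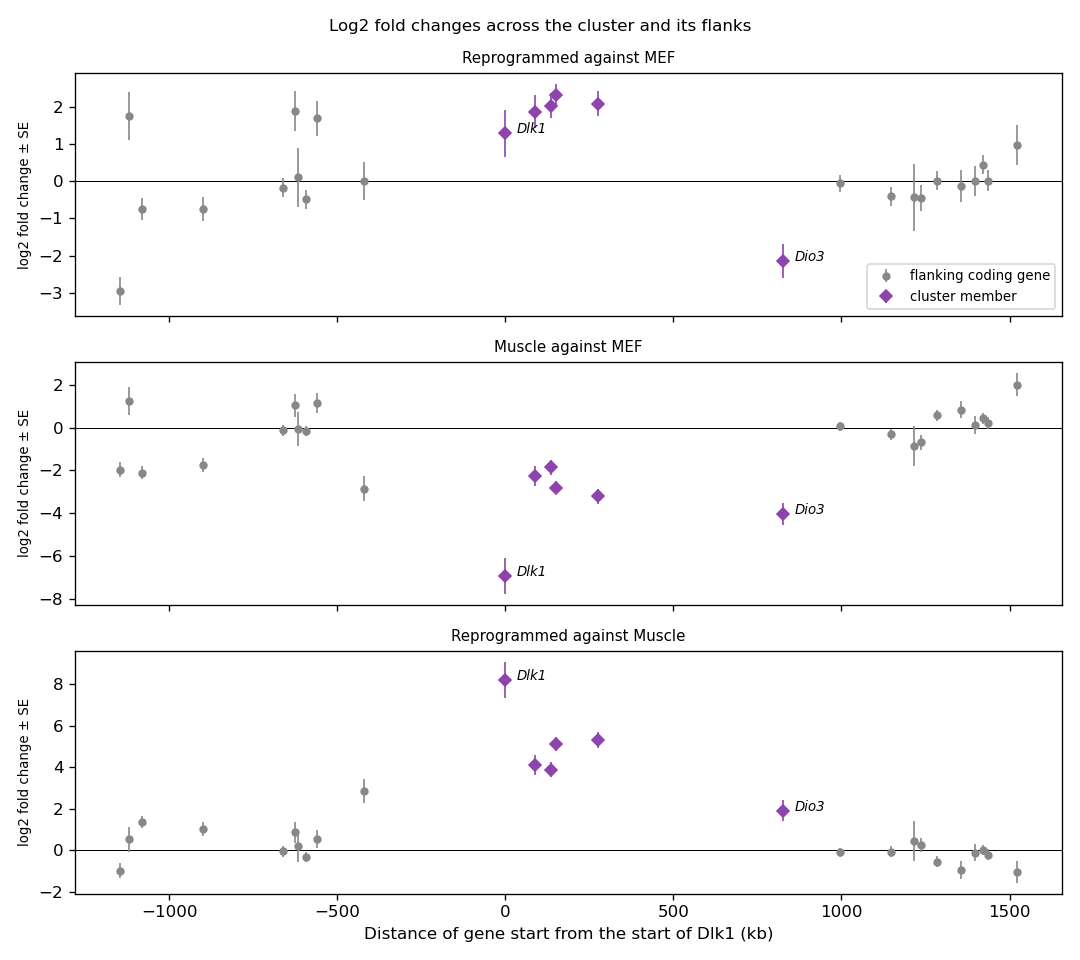
Log2 fold change of reprogrammed cells over MEF, of muscle over MEF and of reprogrammed cells over muscle for the 6 cluster genes and the 20 flanking genes, by distance of the gene start from the start of Dlk1 in kilobases; bars are SE. The cluster genes, which were chosen on their levels, lie away from zero in every panel, with Dio3 below zero in the first. The flanking genes were taken by position, so nothing is read from the difference between them and the cluster genes. Flanking genes on the Dlk1 side spread more widely than those on the Dio3 side.

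Imprints are kept by ZFP57 and ZFP445 with TRIM28, copied by DNMT1 with UHRF1, and can be removed by TET enzymes, and MEF2A regulates this cluster's noncoding RNAs in mouse muscle cells. A list of 23 tested genes held these together with other DNA methyltransferase genes, Mef2c, Mef2d, and Polycomb and other chromatin genes. Of the 23, 7 were called higher and 2 lower in reprogrammed cells than in MEF, against 6 higher and 4 lower for muscle over MEF. In both comparisons the genes called higher included Mef2a, Mef2c and a Polycomb gene, and in muscle also Mef2d. The medians were 0.41 and 0.08 on the log2 scale. Without reprogrammed replicate 2 or MEF replicate 2 the first count was 4. The count of 2 lower was 1 without reprogrammed replicate 1 or MEF replicate 1, and 3 without either muscle replicate. Zfp57 had 41.7 and 36.1 CPM in reprogrammed cells, 33.0 and 20.1 in muscle, and 30.6 and 33.9 in MEF, and was called in no comparison (edgeR adjusted p = 0.557 for reprogrammed cells over MEF). Trim28 was likewise not called, at -0.35 ± 0.27 in reprogrammed cells and -0.53 ± 0.27 in muscle over MEF (edgeR adjusted p = 0.385 and 0.165).

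The MEF2 genes encode transcription factors of the muscle programme. Mef2a had 256 and 220 CPM in reprogrammed cells, 300.5 and 414 in muscle, and 104 and 113 in MEF. It was higher than in MEF by 1.13 ± 0.26 in reprogrammed cells and by 1.71 ± 0.26 in muscle (edgeR adjusted p = 0.0113 and 0.00103). Mef2c rose by 6.24 ± 0.33 in reprogrammed cells and by 6.49 ± 0.34 in muscle over MEF (edgeR adjusted p = 4.57e-06 and 3.08e-06). Neither differed by the test between reprogrammed cells and muscle, at -0.59 ± 0.25 for Mef2a and -0.26 ± 0.26 for Mef2c (edgeR adjusted p = 0.218 and 0.699). Mef2d was higher in muscle than in MEF, at 1.69 ± 0.42 (edgeR adjusted p = 0.0129, and 0.0567 without muscle replicate 1), and at 1.13 ± 0.41 in reprogrammed cells (edgeR adjusted p = 0.0745). Dlk1, Meg3, Rtl1, Rian and Mirg, chosen on their levels, were highest and lowest in the 2 groups in which Mef2a and Mef2c were high. The part of MEF2 factors in the levels of the cluster was not tested.

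Tet1, a 5-methylcytosine dioxygenase, had 18.9 and 14.8 CPM in reprogrammed cells, 6.87 and 7.91 in muscle, and 1.38 and 2.09 in MEF. It was higher than in MEF by 3.27 ± 0.38 in reprogrammed cells and 2.08 ± 0.37 in muscle (edgeR adjusted p = 3.31e-04 and 0.00251). Tet2 was higher by 1.70 ± 0.28 and 1.55 ± 0.28 in the same comparisons (edgeR adjusted p = 0.00232 and 0.00265). Uhrf1, which recruits DNMT1 during replication and is high in dividing cells, was lower than in MEF by the test: -1.88 ± 0.36 in reprogrammed cells and -4.63 ± 0.42 in muscle (edgeR adjusted p = 0.0049 and 6e-05). It was also the 1 listed gene that edgeR called between reprogrammed cells and muscle, at 2.76 ± 0.41 (edgeR adjusted p = 0.00339), where DESeq2 called 3. Dnmt1 was lower in muscle than in MEF, at -0.88 ± 0.28 (edgeR adjusted p = 0.0345, and 0.131 to 0.205 without either muscle replicate or MEF replicate 1). The de novo methyltransferase Dnmt3a was at 1.06 ± 0.27 in reprogrammed cells over MEF (edgeR adjusted p = 0.0178, and 0.0574 to 0.0718 without reprogrammed replicate 2 or either MEF replicate). Dnmt3b stayed between 0.675 and 1.49 CPM and was not called. Its cofactor Dnmt3l was lower in muscle than in MEF, at -3.97 ± 0.73 (edgeR adjusted p = 0.00287), and in reprogrammed cells at -2.60 ± 0.64 (edgeR adjusted p = 0.0165, but 0.0902 without reprogrammed replicate 1 and 0.097 without MEF replicate 1; -3.18 without reprogrammed replicate 2).

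DIO3 acts against DIO2, which makes active thyroid hormone, a driver of muscle maturation. Dio2 had 31.1 and 19.9 CPM in reprogrammed cells, 15.6 and 48.4 in muscle, and 0.165 and 0.389 in MEF. It was higher than in MEF by 6.47 ± 0.73 in reprogrammed cells and 6.79 ± 0.73 in muscle (edgeR adjusted p = 2.98e-04 and 1.62e-04), the groups in which Dio3 was lower. Without MEF replicate 2 these were 7.21 and 7.53, and the muscle value was 7.39 without muscle replicate 1 and 5.76 without muscle replicate 2. Reprogrammed cells and muscle overlapped (-0.32 ± 0.51, edgeR adjusted p = 0.824). Dio1 was at 0 in 5 libraries and at 0.243 CPM in muscle replicate 2.

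Of 15 tested genes of thyroid hormone transport, activation and reception, 6 were called higher in reprogrammed cells than in MEF and 6 in muscle than in MEF, with median log2 fold changes of 0.88 and 0.61. Crym, which binds thyroid hormone in the cytosol, was higher by 7.81 ± 0.46 and 6.97 ± 0.45 (edgeR adjusted p = 6.22e-06 and 7.95e-06). Rxrg, a partner of the thyroid hormone receptors, had 27.6 and 41.5 CPM in reprogrammed cells, 19.4 and 12.6 in muscle, and 0.0551 and 0 in MEF. The receptor gene Thra was not called, at -0.13 ± 0.38 in reprogrammed cells and -0.48 ± 0.38 in muscle over MEF (edgeR adjusted p = 0.839 and 0.366). Thrb was higher in muscle than in MEF, at 2.08 ± 0.40 (edgeR adjusted p = 0.00374), and at 0.99 ± 0.40 in reprogrammed cells (edgeR adjusted p = 0.103). Between reprogrammed cells and muscle edgeR called 0 of the 15, with 4 at an unadjusted p under 0.05 and 0 called by DESeq2.

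Of 9 known targets of thyroid hormone, 5 were called higher and 1 lower in reprogrammed cells than in MEF, and 7 higher and 1 lower for muscle over MEF, with medians of 3.68 and 3.27. Atp2a1, the calcium pump of fast muscle, was higher by 8.92 ± 0.46 and 9.96 ± 0.48 (edgeR adjusted p = 4.03e-06 and 2.21e-06), and Slc2a4, the insulin-responsive glucose transporter, by 5.44 ± 0.43 and 5.93 ± 0.44 (edgeR adjusted p = 3.5e-05 and 1.77e-05). Both are also genes of the muscle programme. Me1, malic enzyme, was the one called lower, at -1.75 ± 0.27 and -2.26 ± 0.28 (edgeR adjusted p = 0.00166 and 3.06e-04). Klf9, a direct receptor target in many cell types, was not called, at -0.09 ± 0.25 in reprogrammed cells and 0.56 ± 0.25 in muscle over MEF (edgeR adjusted p = 0.826 and 0.115).

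**Figure D4:**
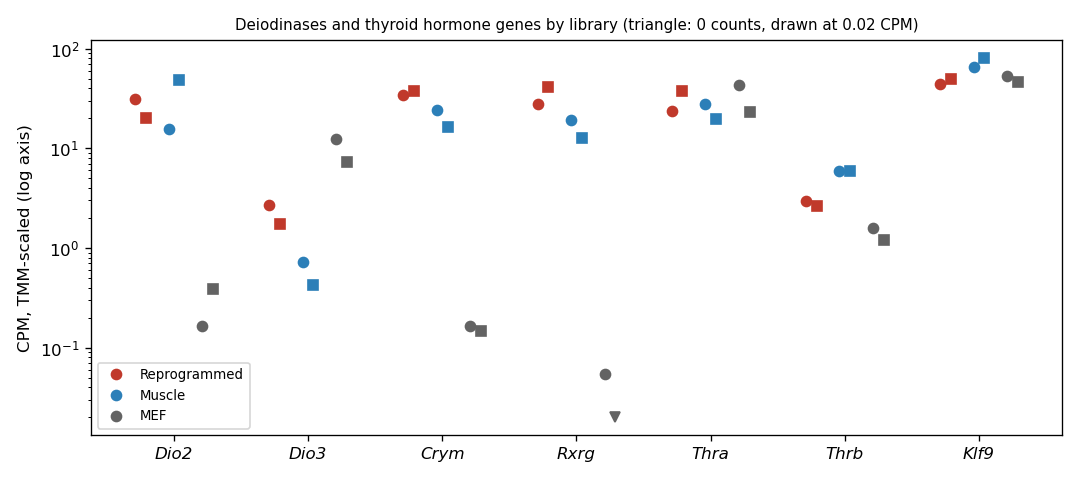
Levels of Dio2, Dio3, Crym, Rxrg, Thra, Thrb and Klf9 in every library, in CPM on a log axis, with reprogrammed cells left, muscle in the middle and MEF right within each gene; circles are replicate 1, squares replicate 2, and the triangle is a library with 0 counts. Dio3 is highest in MEF, while Dio2, Rxrg and Crym are high in reprogrammed cells and muscle.

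DLK1 modulates Notch signalling. Of 19 tested genes of the Notch pathway and of fat cell differentiation, 5 were called higher and 7 lower in reprogrammed cells than in MEF, and 4 higher and 7 lower for muscle over MEF, with medians of -0.80 and -0.45. Leaving out single libraries brought the lower counts to as few as 3 in reprogrammed cells (without reprogrammed replicate 1 or MEF replicate 1) and 1 in muscle (without muscle replicate 2, with 3 without muscle replicate 1 and 4 without MEF replicate 1). Jag2, a Notch ligand, had 16.5 and 28.2 CPM in reprogrammed cells, 77.2 and 57.0 in muscle, and 0.165 and 0.0971 in MEF. It was higher than in MEF by 7.36 ± 0.53 and 8.95 ± 0.53 (edgeR adjusted p = 1.91e-05 and 5.96e-06). Hes6, an inhibitor of HES1 that promotes muscle differentiation, was higher by 4.49 ± 0.31 and 4.21 ± 0.31 (edgeR adjusted p = 1.69e-05 and 1.77e-05), and the Notch target Heyl by 4.10 ± 0.35 and 4.92 ± 0.36 (edgeR adjusted p = 5.71e-05 and 1.71e-05). The genes called lower included Hes1, at -0.90 ± 0.27 and -0.83 ± 0.27 (edgeR adjusted p = 0.0343 and 0.0375). Notch2 was at -1.13 ± 0.34 and -1.20 ± 0.34 (edgeR adjusted p = 0.0385 and 0.0243). Pparg, of fat cell differentiation, was at -3.28 ± 0.46 and -1.80 ± 0.42 (edgeR adjusted p = 0.001 and 0.00961). Between reprogrammed cells and muscle, Hey1 was higher at 1.56 ± 0.34 and Jag2 lower at -1.58 ± 0.34 (edgeR adjusted p = 0.0197 and 0.0185). Both calls were lost without reprogrammed replicate 1 or without either muscle replicate (0.0554 to 0.173).

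Hairpins and snoRNAs of the cluster need processing proteins. Of 10 genes of microRNA processing and function, 2 were called higher and 1 lower than in MEF in each of reprogrammed cells and muscle. Ago2, the slicing Argonaute, was higher by 1.44 ± 0.25 in reprogrammed cells and 1.03 ± 0.25 in muscle (edgeR adjusted p = 0.00316 and 0.0112), and Ago4 by 1.58 ± 0.37 and 1.96 ± 0.37 (edgeR adjusted p = 0.0135 and 0.00357). In muscle the Ago2 call was lost without either muscle replicate or MEF replicate 2 (0.0533 to 0.0691), and in reprogrammed cells the Ago4 call was lost without reprogrammed replicate 2 or MEF replicate 1 (0.0608 and 0.0682). Ago1 was lower by -0.85 ± 0.27 and -0.84 ± 0.27 (edgeR adjusted p = 0.0455 and 0.0379), and its call in reprogrammed cells was lost whichever library was left out (0.0525 to 0.23). Ago1 was not called in muscle without either muscle replicate or MEF replicate 1 (0.117 to 0.246). Of 10 genes for assembly of box C/D snoRNA particles, edgeR called 0 in each of the 3 comparisons, with 0 at an unadjusted p under 0.05 and 0 called by DESeq2. Their medians were 0.05, -0.19 and 0.15, and Ruvbl2 had the smallest p for reprogrammed cells over MEF, at -0.56 ± 0.28 (edgeR adjusted p = 0.179).

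Rtl1 has relatives derived from the same kind of retrotransposon. Of 9 tested, 1 was called higher and 1 lower in reprogrammed cells than in MEF, and 2 were called higher in reprogrammed cells than in muscle. Peg10, an imprinted relative on another chromosome, had 2127 and 2582 CPM in reprogrammed cells, 122 and 226 in muscle, and 161 and 150.4 in MEF. It was higher in reprogrammed cells than in MEF by 3.92 ± 0.35 and than in muscle by 3.76 ± 0.35 (edgeR adjusted p = 7.27e-05 and 3.63e-04), while muscle over MEF gave 0.16 ± 0.31 (edgeR adjusted p = 0.729). Peg10 thus shared the high level in reprogrammed cells, with overlapping muscle and MEF libraries. Rtl3 was lower in muscle than in MEF, at -1.63 ± 0.29 (edgeR adjusted p = 0.00236), and higher in reprogrammed cells than in muscle, at 1.92 ± 0.29 (edgeR adjusted p = 0.00381, and 0.0513 without muscle replicate 1). Rtl5 was lower in muscle than in MEF, at -2.61 ± 0.49 (edgeR adjusted p = 0.00358), and in reprogrammed cells at -1.84 ± 0.47 (edgeR adjusted p = 0.0204, but 0.0875 without reprogrammed replicate 1 and 0.0613 without MEF replicate 1; -2.68 without reprogrammed replicate 2).

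Imprinted genes of other domains moved in both directions. Of 24 tested, 9 were called higher and 5 lower in reprogrammed cells than in MEF, 8 higher and 9 lower for muscle over MEF, and 8 higher and 3 lower in reprogrammed cells than in muscle. The medians were 0.63, 0.40 and 0.61. Without either muscle replicate or MEF replicate 1 the 5 became 3, and without muscle replicate 1 the last 8 became 3, or 4 without muscle replicate 2. The 3 lower became 1 without reprogrammed replicate 2 or either muscle replicate. Mest, a growth-related hydrolase gene, was higher in reprogrammed cells than in MEF by 2.69 ± 0.28 and than in muscle by 3.28 ± 0.29 (edgeR adjusted p = 2.1e-04 and 3.43e-04). Slc38a4, an amino acid transporter gene, had 157 and 145 CPM in reprogrammed cells, 2.86 and 2.37 in muscle, and 101 and 125 in MEF. Its log2 fold change of muscle over MEF was -5.43 ± 0.31 and that of reprogrammed cells over muscle 5.84 ± 0.31 (edgeR adjusted p = 3.71e-06 and 5.96e-05), and that of reprogrammed cells over MEF 0.42 ± 0.25 (edgeR adjusted p = 0.251).

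H19, Igf2 and Zdbf2 had every reprogrammed and every muscle library above both MEF libraries. H19, a noncoding RNA known to be high in developing muscle, had 6127 and 7214 CPM in reprogrammed cells, 4745 and 4254 in muscle, and 973 and 717 in MEF. It was higher than in MEF by 2.98 ± 0.27 in reprogrammed cells and 2.41 ± 0.26 in muscle (edgeR adjusted p = 7.56e-05 and 1.66e-04). Igf2, the growth factor gene beside it, had 165 and 509 CPM in reprogrammed cells, 156 and 121 in muscle, and 77.9 and 26.0 in MEF, with a wide spread between replicates. It was higher in reprogrammed cells than in MEF by 2.70 ± 0.62 (edgeR adjusted p = 0.0119), and by 1.64 without reprogrammed replicate 2 and 3.69 without MEF replicate 1, with 3.30 and 2.11 without the other replicate of each group. Igf2 gave 1.41 ± 0.59 in muscle over MEF (edgeR adjusted p = 0.0957), from 0.82 without MEF replicate 2 to 2.41 without MEF replicate 1. That value was called under 6 alternatives, DESeq2 among them (adjusted p between 6.07e-05 and 0.0289). Zdbf2 was higher by 5.18 ± 0.33 in reprogrammed cells and 4.55 ± 0.32 in muscle (edgeR adjusted p = 1.02e-05 and 1.4e-05). Nnat was lower by the test, at -2.96 ± 0.53 and -3.55 ± 0.55 (edgeR adjusted p = 0.00349 and 0.00117), the first -3.76 without reprogrammed replicate 2. Grb10 was at -2.0 ± 0.24 in reprogrammed cells and -1.12 ± 0.24 in muscle (edgeR adjusted p = 4.13e-04 and 0.00578, the second 0.0858 without muscle replicate 2). Cdkn1c, a cell cycle inhibitor, was lower in reprogrammed cells than in muscle, at -1.89 ± 0.29 (edgeR adjusted p = 0.00395).

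The genes outside the cluster whose profile was most like the mean profile of the 6 cluster genes over the 6 libraries were Mdk, Tcim, Asap2, Pepd and Tril. Pearson's r with that mean, over log2 CPM, ran from 0.998 for Mdk to 0.995 for Tril among 11279 genes with at least 5 CPM on average. Mdk, which encodes the growth factor midkine, had 12.7 and 12.8 CPM in reprogrammed cells, 1.36 and 0.974 in muscle, and 6.88 and 6.51 in MEF. Tril had 10.96 and 10.8 CPM in reprogrammed cells, 0.0426 and 0 in muscle, and 4.85 and 3.84 in MEF. Spearman's rho was 1 for the first 4 of these genes, as it was for 51 genes in all. With 6 libraries in 3 groups these coefficients are a description.

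The authors' deposited table of their own comparison lists 2806 genes, and its header names no contrast. Dlk1, Mirg and Dio3 are among them, with log2 fold changes in the authors' deposited table of 6.42 ± 1.20, 2.40 ± 1.10 and 2.57 ± 1.56 (their SE). The sign in the authors' deposited table was that of MEF over muscle in all of its 2645 genes tested here.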

How the data were processed

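The deposited table holds raw counts (whole numbers) by gene symbol for 6 libraries, per the file headers. Total RNA was converted to stranded mRNA libraries and sequenced as single-end reads, per the labels' protocols. The submitters' processing notes name the build mm10, the aligner HISAT2 2.1.0, the read trimmer Trim Galore 0.6.0, the counter featureCounts 1.6.2 and the tool DESeq2 1.26.0. No source used here gives the annotation or the counting options. A second table gives the authors' own log2 fold changes with SE, a mean signal and p-values, deposited without a named contrast. Only its log2 values and their SE are printed.

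Libraries held 16817033 to 24584951 counts. Counts were analysed in edgeR 4.0.16 (R 4.3.3) with filterByExpr, TMM scaling and the quasi-likelihood test over all 6 libraries, with Benjamini-Hochberg adjustment over 17400 genes and a threshold of 0.05; the biological coefficient of variation was 27.3%. The SE of an edgeR log2 fold change is its size divided by the square root of the quasi-likelihood test's F statistic. It rests on a spread estimated over all 6 libraries and shared in part across genes, not on the 2 libraries of a group alone. The script was tested on simulated data. Coordinates and exon lengths are from GENCODE M21 on mm10, sequences from RefSeq. Alternatives were RLE scaling, no scaling factors, no low-count filter, DESeq2 1.42.0, 2 groups alone, a replicate block, a correlation with another prior count, and each library left out.

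The 6 genes and all lists were chosen with earlier results of these data known. Genes named in the text were taken from all 6 genes; the 8 other rows of the cluster with the most counts; called flanking genes; for each list, the 2 genes with the smallest adjusted p per comparison, up to 2 called against its majority, and 17 set genes; and the 5 most similar profiles. Gm34719, Ppp2r5c, Hes1, Notch2, Pparg and the microRNAs with shared seeds were named beyond this rule, after their values were seen.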

Additional observations from a re-analysis of the deposited data

How the results depend on the processing

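For the 6 cluster genes, 108 of 108 log2 fold changes under another scaling, filter, tool or fit stayed within 1 SE of the reported value, with a largest shift of 0.34. With single libraries left out, the log2 fold changes ran, for reprogrammed cells over MEF, from 1.42 to 2.37 for Meg3 and from 2.04 to 2.67 for Rian. For muscle over MEF they ran from -9.37 to -6.14 for Dlk1, from -2.90 to -1.75 for Meg3 and from -3.08 to -2.45 for Rian, and for reprogrammed cells over muscle from 7.43 to 10.66 for Dlk1 and from 3.67 to 4.76 for Meg3. None changed sign. With single libraries left out, counts of called genes were 2258 to 2394 higher in reprogrammed cells than in MEF, 1280 to 1926 lower in reprogrammed cells than in MEF (1280 without reprogrammed replicate 1), 1980 to 3223 higher and 1778 to 3445 lower in muscle than in MEF (lowest without muscle replicate 2, with 2118 lower without muscle replicate 1), and 589 to 1616 higher and 140 to 605 lower in reprogrammed cells than in muscle (lowest without muscle replicate 2; 743 higher and 165 lower without muscle replicate 1, and 228 lower without reprogrammed replicate 1). Without the low-count filter the last count was 670. Of 79 calls of other genes named by the rule above, each for 1 gene in 1 comparison, 58 were kept under every alternative and 21 were lost under at least 1. Of the results not called, 10 were called under at least 1, with Igf2 and Evl in more than 1 comparison. With another prior count the 5 genes most like the cluster ranked between 2 and 8.

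Same-numbered libraries did not deviate together in every pair of groups: the correlation of their deviations was -0.291 between reprogrammed cells and muscle, -0.529 between reprogrammed cells and MEF and 0.314 between muscle and MEF. They share only a number. With a replicate block, 2187 genes were called higher in reprogrammed cells than in MEF, against 2769 without it, and 265 genes were called lower in reprogrammed cells than in muscle, against 428 without it. Depth limits Dlk1 in muscle (5 counts in replicate 2), Dio3 (7 counts there) and the hairpin rows, and intervals from 2 libraries a group are wide.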
